A study of Mus musculus with 8 samples.

Results

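Guanylate-binding proteins (GBPs) and immunity-related GTPases (IRGs) are large interferon-inducible GTPases of the cell's own defence against intracellular microbes. The genes examined here were *Gbp2*, *Gbp3*, *Gbp5*, *Gbp7*, *Gbp9*, *Irgm1*, *Irgm2*, *Igtp* and *Iigp1*, 9 in all, chosen by name and read from probe sets that the array annotation gives to that gene alone. Of these 9, 7 had such a probe set (3 GBPs and 4 IRGs, 10 probe sets together) among 18183 genes with one, and *Gbp5* and *Gbp9* were not analysed here. *Gbp2*, *Gbp7* and *Iigp1* had 2 probe sets each. The brightest by its mean over the 8 arrays was used and the other served as a check.

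The arrays carried RNA of bone marrow-derived macrophages (BMDM) of C57Bl/6 mice, grown for 7 days in 15% L929-conditioned medium from marrow that had been frozen. WT(LPS) and miR-155-/-(LPS) BMDM received 100 ng/ml of lipopolysaccharide (LPS) for 24 h. The WT(LPS + IL-10) group and its miR-155-/- counterpart, miR-155-/-(LPS + IL-10), were given 20 ng/ml of the anti-inflammatory cytokine IL-10 5 min before the LPS. Each group had 2 arrays, 1 from each of 2 donors of a genotype, and each donor gave an array to both treatments. All 4 groups received LPS and none was left unstimulated, so no value below is an induction over resting cells. By their labels the WT animals were female and the miR-155-/- animals male, so in every comparison between genotypes genotype and sex cannot be told apart. In these bulk samples fewer expressing cells and less RNA per cell cannot be told apart either.

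Interferon binds its receptor, and the JAK kinases attached to the receptor phosphorylate STAT proteins, which enter the nucleus and bind short DNA elements. IFN-γ acts mainly at gamma-activated sites (GAS), whereas type I interferon acts mainly at interferon-stimulated response elements (ISRE), where STAT2 and IRF9 take part. GBPs then gather on vacuoles and bacteria in the cytosol, help to break them open and to activate inflammasomes. The regulatory IRGs (*Irgm1*, *Irgm2*, *Igtp*) stay on the cell's own membranes and hold the effector IRGs such as *Iigp1* in an inactive state.

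The stretches of 110 bases just before the annotated start of the 6 measured genes found in the promoter table are printed here because they show these elements beside the levels that follow. They are from RefSeq, GRCm38.p6, 5′ to 3′ along the strand of the gene, and capitals mark every match on either strand to GAAANNGAAA (ISRE) or TTCNNNGAA (GAS). Overlapping matches run together in *Gbp3* and *Irgm1*.
Gbp2, chr3:142620553-142620662, + strand: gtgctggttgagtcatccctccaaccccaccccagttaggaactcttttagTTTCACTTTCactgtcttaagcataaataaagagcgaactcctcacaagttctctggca
Gbp3, chr3:142559934-142560043, + strand: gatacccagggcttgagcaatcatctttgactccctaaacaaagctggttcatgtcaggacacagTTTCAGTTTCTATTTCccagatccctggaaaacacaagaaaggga
Gbp7, chr3:142530226-142530335, + strand: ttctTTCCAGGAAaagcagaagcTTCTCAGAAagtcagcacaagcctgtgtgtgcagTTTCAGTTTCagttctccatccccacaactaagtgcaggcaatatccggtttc
Irgm1, chr11:48871421-48871530, - strand: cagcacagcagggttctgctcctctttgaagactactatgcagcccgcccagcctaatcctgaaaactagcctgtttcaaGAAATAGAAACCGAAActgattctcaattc
Irgm2, chr11:58214867-58214976, + strand: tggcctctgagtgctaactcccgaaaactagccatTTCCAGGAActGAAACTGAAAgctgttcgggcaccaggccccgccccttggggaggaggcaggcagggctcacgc
Igtp, chr11:58199446-58199555, + strand: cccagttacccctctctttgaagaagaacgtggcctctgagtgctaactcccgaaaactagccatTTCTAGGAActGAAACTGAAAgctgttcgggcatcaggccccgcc

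Windows from 250 bases before to 50 after the start were searched in full. All 7 member genes with a window, *Gbp5* included, held an ISRE match, against 3.44% of all 32851 windows. A GAS match was found in 4 of the 7 (*Gbp5*, *Gbp7*, *Irgm2* and *Igtp*), against 8.3% of all windows. All 4 of these held both, which 0.454% of all windows did. *Gbp3* had 2 windows, and its matches were in 1 of them. *Irgm2* and *Igtp* are neighbours on chromosome 11, and their windows shared an unbroken run of 61 bases next to the motifs. In both, the GAS match lay just upstream of the ISRE match, from −75 to −67 and from −64 to −55 in *Irgm2* and from −45 to −37 and from −34 to −25 in *Igtp*. Genes *Gbp5*, *Gbp7* and *Gbp3* follow each other on chromosome 3, with *Gbp2* after the related *Gbp2b*. A match is a description of the letters and not a shown binding site, and members that are neighbours or copies of each other are not independent.

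**Figure D1:**
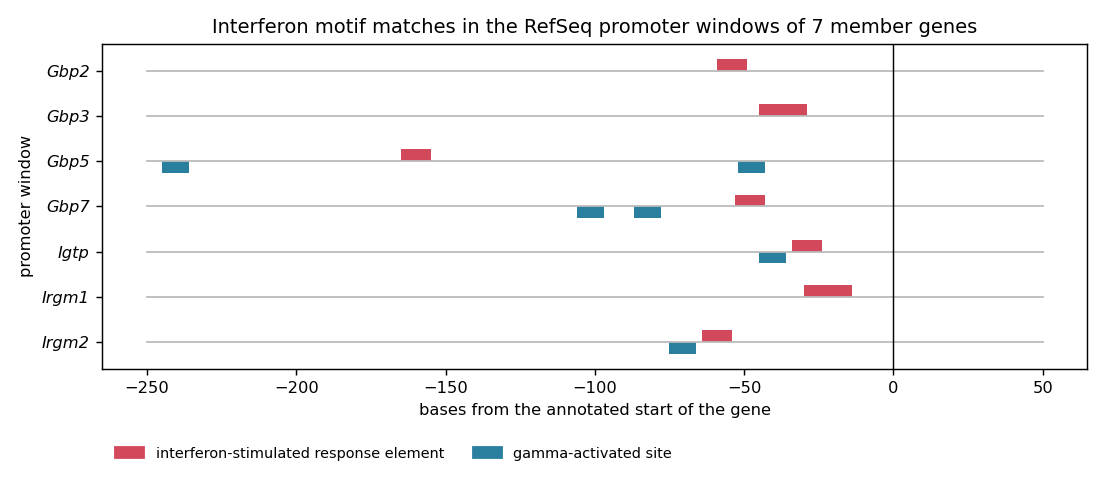
Positions of ISRE matches (upper bars) and GAS matches (lower bars) in the promoter windows of 7 member genes, as bases from the annotated start (vertical line), with grey lines for the window searched. The ISRE matches of *Gbp2*, *Gbp3*, *Gbp7*, *Irgm1*, *Irgm2* and *Igtp* lie within 64 bases of the start, and that of *Gbp5* begins at −165.

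The cells read as macrophages on every array, with the median of 8 macrophage markers between 12.59 and 12.82 on the log2 scale. Medians of T and NK cell markers, sources of IFN-γ, lay between 2.25 and 3.29, highest on the 2 arrays of WT donor 2. Over the 8 arrays the lower quartile of all probe sets was 2.25 to 2.32 and the median 3.88 to 3.97. The median of 7 neutrophil markers was 2.54 to 3.32, with *Elane* at 1.58 to 2.24 and *Mpo* at 2.09 to 2.66. *Camp*, at 4.99 to 6.30, was above the median of all probe sets on every array and was not called in any of the comparisons. Of these 7, the calprotectin genes *S100a8* and *S100a9*, which macrophages express too, were called lower in miR-155-/- than in WT BMDM with LPS alone, by 1.17 and 3.12 (limma, adjusted p = 0.0141 and 0.0153). *S100a8* was higher with IL-10 in miR-155-/- BMDM by 1.59 (limma, adjusted p = 0.00261) and *S100a9* lower by 4.44 in miR-155-/- than in WT BMDM with IL-10 (adjusted p = 0.0187). Fibroblast and stroma markers stood apart on both arrays of WT donor 1, at 7.27 and 7.31 against 3.51 to 5.39 on the others, and 7 of 8 were highest in that donor. Of the 8, *Lum* was called, higher by 2.57 with LPS alone in miR-155-/- than in WT BMDM (limma, adjusted p = 0.0125). The part of these cells in the results was not tested. Results without that donor are given for the members, beside each comparison that uses it. For the other genes and the shared probe sets they are not given. The transcript that miR-155 is cut from, *Mir155hg*, read 2.73 and 4.02 in WT BMDM with LPS alone and 2.31 and 2.01 with added IL-10, against 2.14 and 2.19, and 1.70 and 2.00, in miR-155-/- BMDM. It did not differ between miR-155-/-(LPS) and WT(LPS) past the test (log2 difference −1.21, limma, adjusted p = 0.246), so this probe set is a weak check of the genotype labels.

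Levels are the authors' log2 RMA values, and a level of 1 probe set is not set against that of another. *Gbp2*, a GBP that binds the vacuoles of parasites and bacteria (probe set 1435906_x_at), was at 7.80 and 8.67 on the WT arrays with LPS alone and at 6.68 and 7.08 on those with added IL-10. On the miR-155-/- arrays it was at 10.59 and 10.28 with LPS alone and at 8.05 and 7.78 with added IL-10. Both miR-155-/-(LPS) arrays were above the other 6 and both WT(LPS + IL-10) arrays were below them. The suffix x marks a probe set that shares probes with other sequences, so signal from a close copy cannot be told apart. The second probe set of *Gbp2*, without that suffix, gave the same order of group means.

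*Gbp3*, a GBP encoded between *Gbp7* and *Gbp2b* (1418392_a_at), was at 7.40 and 7.97 in WT BMDM with LPS alone and at 6.54 and 6.09 with added IL-10. In miR-155-/- BMDM these levels were 10.61 and 10.13, and 7.72 and 7.58. With IL-10, the miR-155-/- arrays therefore fell inside the range of the WT(LPS) arrays. *Gbp7*, a GBP that takes part in oxidative killing of bacteria (1434380_at), was bright throughout, at 10.83 and 11.09 in WT BMDM given LPS alone and at 10.67 and 11.13 after IL-10 was added. The miR-155-/- levels were 11.79 and 11.76 without IL-10 and 11.17 and 11.37 with it. The 2 WT groups overlapped for this gene, while all 4 miR-155-/- arrays were above all 4 WT arrays. Its second probe set (1425156_at), far dimmer, was at 6.10 and 6.51, 6.06 and 6.14, 8.23 and 7.90, and 6.86 and 6.81 in the same 4 groups.

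*Irgm1*, a regulatory IRG of lysosomal and Golgi membranes (1418825_at), had WT levels of 9.25 and 9.42 with LPS alone and of 8.44 and 8.62 with added IL-10. Its miR-155-/- levels were 10.34 and 10.13 without IL-10 and 9.45 and 9.34 with it. Here miR-155-/-(LPS + IL-10) overlapped WT(LPS). *Irgm2*, a regulatory IRG of the Golgi (1417793_at), had WT levels of 10.07 and 10.42 without IL-10 and of 9.36 and 9.72 with it. In miR-155-/- BMDM these were 11.29 and 11.14, and 10.11 and 10.19. *Igtp*, also called Irgm3, a regulatory IRG of the endoplasmic reticulum (1417141_at), read 9.72 and 10.29 in WT BMDM with LPS alone, against 8.96 and 9.34 with added IL-10. It read 11.45 and 11.17 in miR-155-/- BMDM with LPS alone, against 9.73 and 9.93 with added IL-10. These 3 regulators shared 1 order of groups, as did *Gbp2* and *Gbp3*. WT(LPS + IL-10) was lowest, miR-155-/-(LPS) was highest, and the other groups lay between them and overlapped.

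*Iigp1*, an effector IRG that coats and breaks the vacuoles of parasites (1419042_at), was measured at 6.85 and 7.46 in WT BMDM without IL-10 and at 5.45 and 5.33 with it. For miR-155-/- BMDM the levels were 9.74 and 8.95 without IL-10 and 6.08 and 5.64 with it. It was the only member for which the miR-155-/-(LPS + IL-10) arrays were both below both WT(LPS) arrays. Its second probe set (1419043_a_at) was at 5.76 and 5.76, 4.35 and 3.08, 8.33 and 7.58, and 5.02 and 4.07, in the same order of groups. The WT(LPS + IL-10) arrays of that probe set had an SD of 0.90 (log2, n = 2), against 0.08 for the first probe set.

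**Figure D2:**
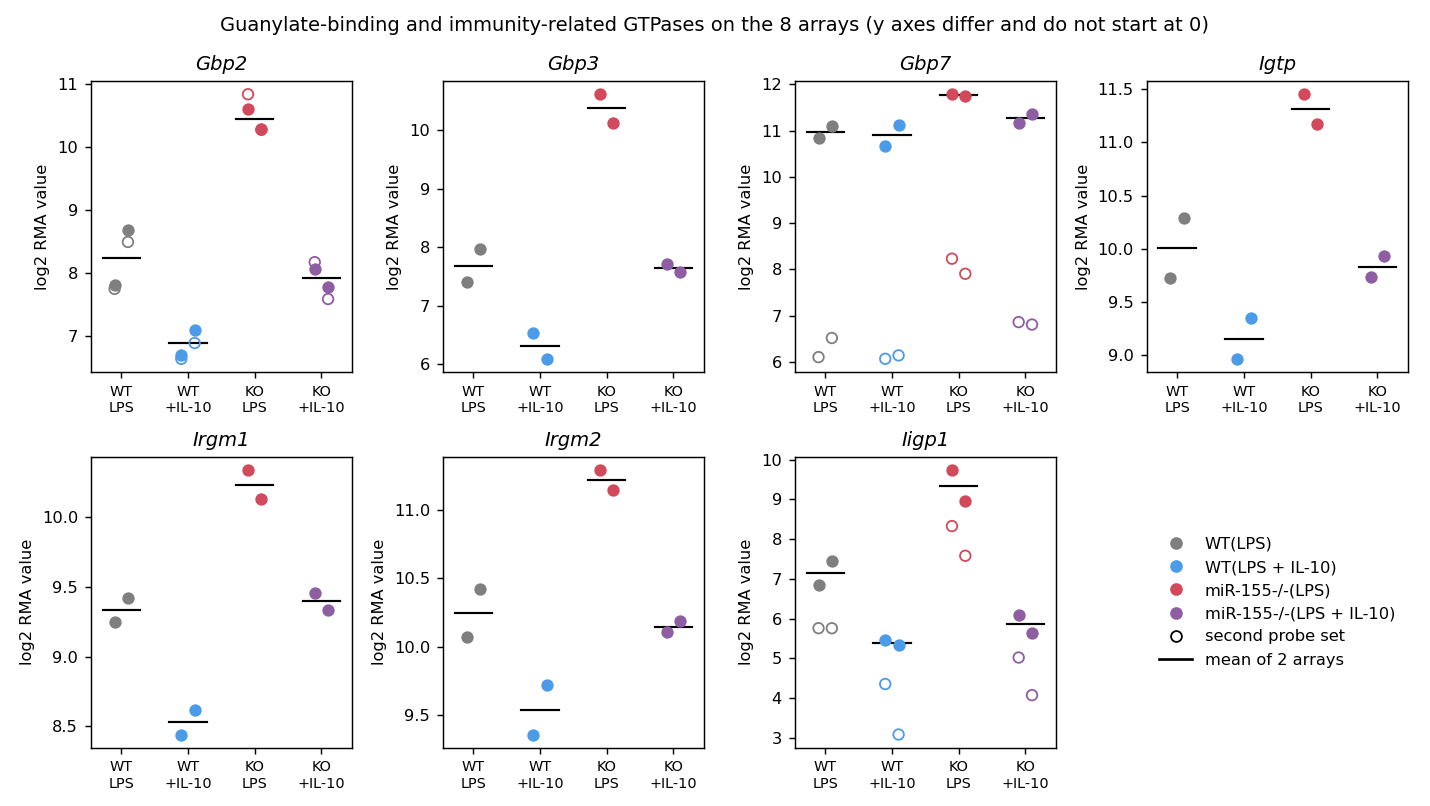
Log2 RMA values of the 7 members on the 8 arrays, 1 panel a gene with its own y axis, filled points for the brightest probe set, open points for the second probe set where there is one, and bars for the mean of 2 arrays. For each probe set the miR-155-/-(LPS) points are the highest.

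Whether loss of miR-155 was accompanied by a different level after LPS was answered by miR-155-/-(LPS) against WT(LPS). The GBPs *Gbp2* and *Gbp3*, the regulators *Irgm1* and *Igtp*, and the effector *Iigp1* were higher in miR-155-/-(LPS), from 1.87-fold (*Irgm1*) to 6.43-fold (*Gbp3*). Thus 5 of 7 members passed the test (adjusted p under 0.05, limma), beside 0.951% of all probe sets that were called higher, and *Gbp7* and *Irgm2* did not. The selection of the study's methods (unadjusted p under 0.05, log2 difference over 1 in size) took 4 of 7 as higher, beside 1.52% of all probe sets. In all 7 the groups did not overlap, as they did not, in this direction, for 25.3% of all probe sets. The members' median log2 difference was 1.31, and that of all probe sets was 0.02.

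*Gbp3* was higher by 2.69 ± 0.28 (log2, SE, n = 2 arrays a group, limma, adjusted p = 0.0109). *Gbp2* was 4.58-fold higher, at a log2 difference of 2.20 ± 0.28 (SE, limma, adjusted p = 0.0201), and its second probe set gave 2.44 (adjusted p = 0.0180). *Iigp1* was 4.56-fold higher, at 2.19 ± 0.31 (SE, limma, adjusted p = 0.0248). Its second probe set gave a like difference of 2.20 that did not pass the test (limma, adjusted p = 0.0837). Among the regulators, *Igtp* was higher by 1.31 (limma, adjusted p = 0.0473) and *Irgm1* by 0.90 (adjusted p = 0.0379), while *Irgm2*, at 0.97, missed the threshold (adjusted p = 0.0527). *Gbp7* differed by 0.81 (limma, adjusted p = 0.0991) on its bright probe set and by 1.76 (adjusted p = 0.0105) on its dim one, so the call for this gene depended on the probe set.

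These calls rested on few arrays, and 0 of 7 passed the test when only the 4 arrays compared were fitted, beside 0.171% of all probe sets called in either direction. With 1 array left out in turn, between 0 and 2 of the 7 members passed the test, while the share of all probe sets called in either direction was 0.118% to 1.06%, against 1.46% with all arrays. None did without WT(LPS) replicate 1, without miR-155-/-(LPS) replicate 1 or without miR-155-/-(LPS) replicate 2, and each of the other 5 arrays, left out, gave 1 or 2. *Gbp3* was called in 5 of these 8 fits and *Gbp2* in 3, the others in none, with differences of 2.35 to 3.02 and of 1.81 to 2.59. Without both arrays of WT donor 1, *Gbp3* was higher by 2.40 (limma, adjusted p = 0.0274) and *Gbp2* by 1.76 (adjusted p = 0.0426), and the other 5 did not pass the test, beside 0.578% of all probe sets called in either direction.

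The effect of IL-10 on LPS-stimulated BMDM was compared in each genotype. In WT BMDM, 0 of 7 members passed the test (limma, adjusted p under 0.05), beside 0.0222% of all probe sets called lower. At an unadjusted p under 0.05, 6 of 7 were lower with IL-10, all but *Gbp7*, beside 4.58% of all probe sets. With a log2 difference over 1 as well, 3 were lower (*Gbp2*, *Gbp3* and *Iigp1*), beside 0.355% of all probe sets. The same 6 members did not overlap between the groups, beside 16.7% of all probe sets. The median log2 difference was −0.85, against 0 for all probe sets. The values were −1.76 for *Iigp1* (limma, adjusted p = 0.112), −1.37 for *Gbp3* (0.158) and −1.35 for *Gbp2* (0.163). For the regulators they were −0.81 for *Irgm1* (limma, adjusted p = 0.118), −0.85 for *Igtp* (0.264) and −0.70 for *Irgm2* (0.235). *Gbp7* gave −0.06 (limma, adjusted p = 0.931), with a 95% interval from −0.44 to 0.31. Restricted to probe sets with a mean of 6 or more, or with an intensity trend and robust moderation in limma, 5 of 7 were called lower with IL-10, beside 2.12% and 0.542% of the probe sets tested that were called in either direction. Without WT donor 1, 0 of 7 were called, and the differences ran from 0.0377 (*Gbp7*) to −2.13 (*Iigp1*).

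In miR-155-/- BMDM, IL-10 lowered 6 of 7 members (limma, adjusted p under 0.05), beside 1.42% of all probe sets called lower. *Iigp1* fell 11.2-fold, *Gbp3* 6.58-fold and *Gbp2* 5.72-fold, while *Igtp* fell 2.80-fold, *Irgm2* 2.10-fold and *Irgm1* 1.79-fold. By the selection of the study's methods, 5 of 7 were lower, beside 1.42% of all probe sets. The groups did not overlap for any of the 7, beside 23.4% of all probe sets, and the median log2 difference was −1.48, against 0.01 for all probe sets. *Iigp1* had a difference of −3.48 ± 0.27 (log2, SE, limma, adjusted p = 0.00265), the 10th strongest fall among 18183 genes, and −3.41 (adjusted p = 0.0103) on its second probe set. *Gbp3* and *Gbp2* had differences of −2.72 and −2.52 (limma, adjusted p = 0.00438 and 0.00547). The differences of *Igtp*, *Irgm2* and *Irgm1* were −1.48, −1.07 and −0.84 (limma, adjusted p = 0.0148, 0.0188 and 0.0212). *Gbp7* did not pass the test on its bright probe set, at −0.50 (limma, adjusted p = 0.168), and did on its dim one, at −1.23 (adjusted p = 0.0130).

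*Iigp1* was called lower in miR-155-/- BMDM with each of the 8 arrays left out in turn (limma, adjusted p at most 0.0378). *Gbp3* was called in 7 of the 8 fits, all but that without miR-155-/-(LPS) replicate 1 (adjusted p = 0.0586). *Gbp2* was called in 6, and was not without that array (limma, adjusted p = 0.0681) or without miR-155-/-(LPS + IL-10) replicate 2 (adjusted p = 0.0546). The 3 regulators were called in 4 fits each, those that left out a WT array. The count of members called was 1 without miR-155-/-(LPS) replicate 1, 3 without miR-155-/-(LPS) replicate 2, 3 without miR-155-/-(LPS + IL-10) replicate 1 and 2 without miR-155-/-(LPS + IL-10) replicate 2. Of all probe sets, 0.249%, 0.615%, 0.502% and 0.438% were called in either direction in these 4 fits, against 2.68% with all arrays.

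**Figure D3:**
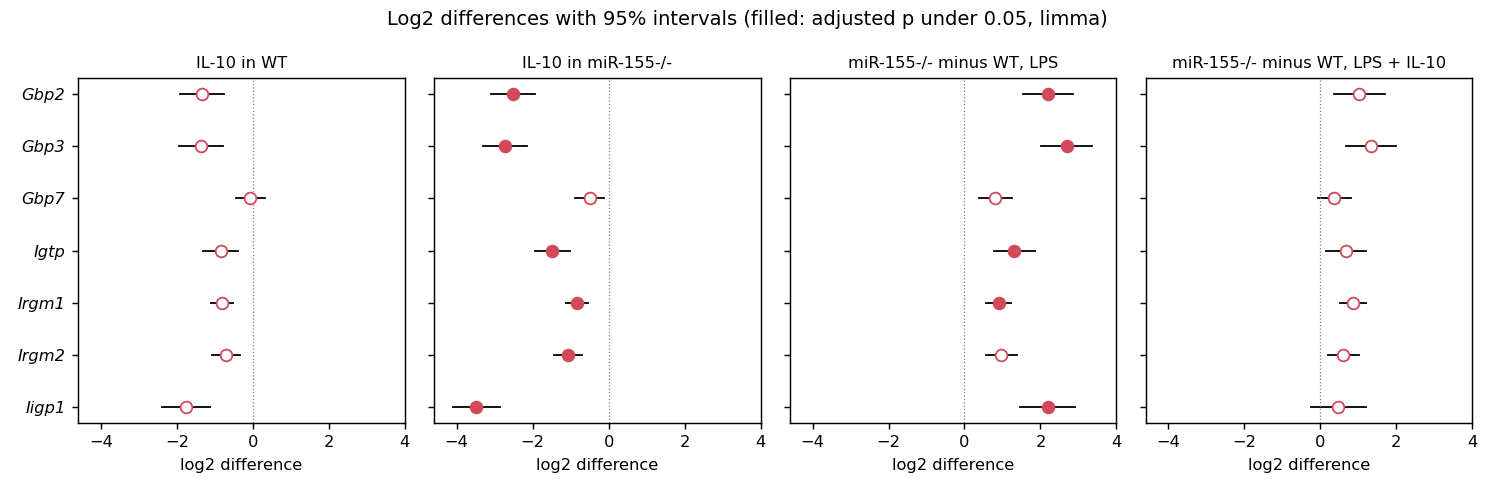
Log2 differences of the 7 members with 95% intervals from limma, in 4 comparisons, on 1 x axis range, with filled points at an adjusted p under 0.05. The filled points are 0 for IL-10 in WT, 6 for IL-10 in miR-155-/-, 5 for miR-155-/- against WT with LPS, and 0 with LPS + IL-10.

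With IL-10 present, 0 of 7 members differed between genotypes past the test (limma, adjusted p under 0.05), beside 0.0378% of all probe sets called higher in miR-155-/-. The log2 differences ran from 0.37 (*Gbp7*) to 1.34 (*Gbp3*, limma, adjusted p = 0.217), with a median of 0.67 against 0.03 for all probe sets. *Irgm1*, at 0.87, had the lowest adjusted p of the members (limma, 0.133). *Gbp2* differed by 1.03 (limma, adjusted p = 0.349), *Igtp* by 0.67 (0.452) and *Irgm2* by 0.61 (0.372). At an unadjusted p under 0.05, 5 of 7 were higher in miR-155-/-(LPS + IL-10), beside 5.59% of all probe sets, and *Gbp7* and *Iigp1* were not among them. The dim probe set of *Gbp7*, at 0.73, did pass that rule (limma, adjusted p = 0.295). With a log2 difference over 1 as well there were 2, *Gbp2* and *Gbp3*, beside 0.671%. The groups did not overlap for all 7, beside 23.2% of all probe sets. For *Iigp1* the difference was 0.47, with a 95% interval from −0.25 to 1.19. Without WT donor 1, 0 of 7 were called, and *Gbp3* differed by 1.56 (limma, adjusted p = 0.0922) and *Gbp7* by 0.14 (adjusted p = 0.755).

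Whether IL-10 acted differently in the 2 genotypes was tested by the interaction. Within donors, *Iigp1* was lower with IL-10 by 1.40 and 2.13 (log2) in WT and by 3.66 and 3.31 in miR-155-/- BMDM. For *Gbp3* the 2 WT donors gave −0.86 and −1.88 and the miR-155-/- donors −2.89 and −2.55, and for *Gbp2* they gave −1.12 and −1.59, and −2.53 and −2.50. *Irgm1* hardly differed between donors of either genotype, at −0.80, −0.81, −0.89 and −0.79. Both miR-155-/- donors were below both WT donors for 6 of 7 members, all but *Irgm1*, beside 21.1% of all probe sets. The interaction passed the test for 0 of 7 members (limma, adjusted p under 0.05), beside 0.0333% of all probe sets. At an unadjusted p under 0.05, 3 were more strongly lowered in miR-155-/- BMDM, *Iigp1*, *Gbp3* and *Gbp2*, beside 5.01% of all probe sets. Each of the 3 had a log2 difference over 1 in size, beside 0.982% of all probe sets. The interaction was −1.72 for *Iigp1* (limma, adjusted p = 0.285), −1.35 for *Gbp3* (0.331), −1.16 for *Gbp2* (0.384) and −0.03 for *Irgm1* (0.965). It was −0.64 for *Igtp* (limma, adjusted p = 0.494) and −0.36 for *Irgm2* (0.588). For *Gbp7* it was −0.44 on the bright probe set (limma, adjusted p = 0.539) and −1.03 on the dim one (adjusted p = 0.285), which passed at an unadjusted p under 0.05. Without WT donor 1, the interaction of *Gbp3* was −0.84 (limma, adjusted p = 0.277), that of *Gbp2* −0.93 (adjusted p = 0.228) and that of *Iigp1* −1.35 (adjusted p = 0.252), and 0 of 7 were called. The miR-155-/-(LPS) arrays enter this test and the comparison with WT(LPS) alike, so the 2 are not independent.

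**Figure D4:**
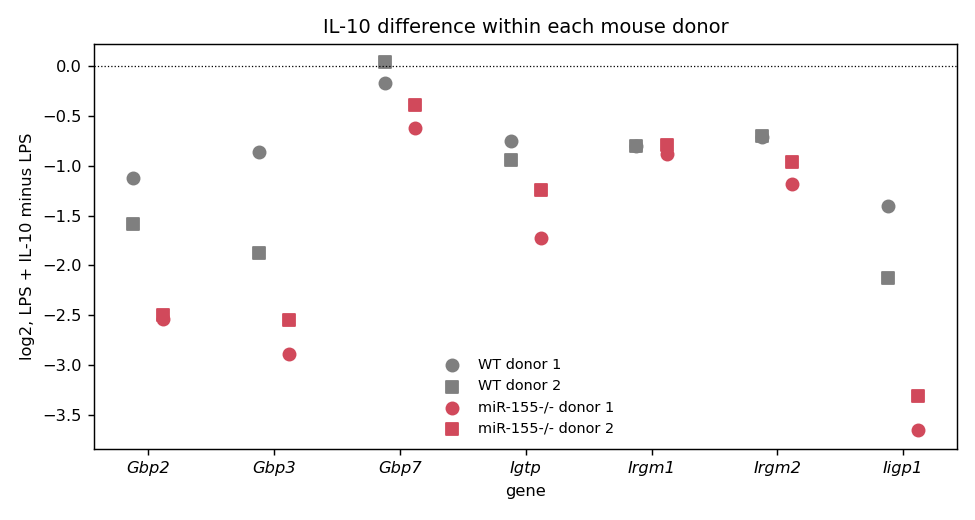
Log2 value with LPS + IL-10 minus log2 value with LPS in the same donor, for each member, with grey points for the 2 WT donors and red points for the 2 miR-155-/- donors. The red points lie below the grey ones for 6 of the 7 genes, and for *Irgm1* the 4 points lie between −0.89 and −0.79.

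Relatives of the members were listed as well, 14 GTPases of which 7 had a probe set of their own. Of these 7, 4 were called higher with LPS in miR-155-/- than in WT BMDM, beside 0.951% of all probe sets. The same 4 were called lower with IL-10 in miR-155-/- BMDM, beside 1.42% of all probe sets. *Gbp6*, a further GBP, was higher by 2.34 (limma, adjusted p = 0.0320) and lower with IL-10 by 2.63 (adjusted p = 0.00977). The IRG genes *Gm4951* and *Ifi47* (the latter also called Irgd) were higher by 1.66 (limma, adjusted p = 0.0138) and 1.03 (adjusted p = 0.0320), and IL-10 lowered them by 1.91 (adjusted p = 0.00401) and 1.06 (adjusted p = 0.0130). *Gbp8* had differences of 1.68 (limma, adjusted p = 0.0295) and −1.93 (adjusted p = 0.00800) in the same comparisons, but its levels, 1.41 to 3.81, were low: its 2 miR-155-/-(LPS) arrays, at 3.81 and 3.03, were below the median of all probe sets (3.88 to 3.97 over the arrays) and its other arrays below the lower quartile. *Gbp2b*, at 1.36 to 1.95, *Irgc1* and *Irgq* did not pass either test. The list's medians were 1.03 and −1.06 in these 2 comparisons, with 0.03 and −0.0033 for all genes. For IL-10 in WT the median was −0.10, the value of the dim *Gbp8*. In WT BMDM 4 of the 7 were lower with IL-10, 3 were higher and 0 were called. *Gm4951* differed there by −1.52 (limma, adjusted p = 0.0604), *Gbp6* by −1.39 (0.243) and *Ifi47* by −0.51 (0.334).

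One probe set is annotated to both *Tgtp1* and *Tgtp2*, effector IRGs that are near-identical copies. Its WT levels were 9.11 and 9.42 without IL-10 and 7.77 and 7.71 with it, and its miR-155-/- levels 11.37 and 11.08, and 8.83 and 8.70. No group overlapped another. It was called in WT BMDM with IL-10, lower by 1.52 (limma, adjusted p = 0.0472), as none of the 7 members was. It was higher by 1.96 in miR-155-/-(LPS) (limma, adjusted p = 0.00560) and IL-10 lowered it by 2.46 there (adjusted p = 0.00178). A probe set shared by *Gvin1* and *Gm4070*, giant relatives of the family, was lowered by IL-10 in miR-155-/- BMDM by 0.92 (limma, adjusted p = 0.0305). In WT BMDM it differed by −0.95 (limma, adjusted p = 0.127), and its interaction was 0.03 (adjusted p = 0.976). A probe set shared by *Gbp4* and *Gbp8* was not called.

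The signals upstream were read next, from a list of 20 ligands, receptors and signalling genes of which 19 had a probe set of their own. *Ifng*, which encodes IFN-γ, was at 1.51 to 1.84 on all arrays, below the lower quartile of all probe sets. *Ifnb1*, which encodes IFN-β, was at 2.80 to 3.47, below the median of all probe sets. Neither differed in any of the comparisons past the test. The receptor genes *Ifngr1*, *Ifngr2*, *Ifnar1* and *Ifnar2* were not called either, with log2 differences between −0.34 (*Ifngr1*) and 0.22 (*Ifnar1*) for miR-155-/-(LPS) against WT(LPS) on their brightest probe sets. A second probe set of *Ifnar1* had the opposite sign, at −0.73 (limma, adjusted p = 0.319). Of the 19, 3 were called higher in miR-155-/-(LPS), beside 0.951% of all probe sets. They were *Jak2*, a kinase of the IFN-γ receptor (1.27, limma, adjusted p = 0.0231), *Irf7*, an amplifier of type I interferon (1.24, adjusted p = 0.0381), and *Stat2* (1.10, adjusted p = 0.0297). With IL-10 in miR-155-/- BMDM, 4 were called lower, beside 1.42% of all probe sets. These were *Irf7* (−1.26, limma, adjusted p = 0.0159), *Stat2* (−1.10, adjusted p = 0.0130), *Jak2* (−0.86, adjusted p = 0.0355) and the kinase *Tyk2* (−0.80, adjusted p = 0.0478). No gene of the list was called in WT BMDM with IL-10.

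*Stat2*, the STAT specific to type I and III interferon, was at 8.62 and 8.75 in WT BMDM without IL-10 and 7.84 and 7.75 with it, and at 9.97 and 9.59, and 8.73 and 8.64, in miR-155-/- BMDM. On this brightest probe set its groups stood in the same order as those of *Gbp2*, *Gbp3* and the regulatory IRGs, as did those of *Irf7*. A second probe set of *Stat2* gave 1.12 for miR-155-/-(LPS) against WT(LPS) and −0.92 with IL-10 in miR-155-/- BMDM, neither past the test (limma, adjusted p = 0.0997 and 0.0893). On that probe set both miR-155-/-(LPS + IL-10) arrays, at 6.94 and 6.67, were above both WT(LPS) arrays, at 6.57 and 6.63. *Irf1*, the factor through which IFN-γ drives many GBP genes, differed by 0.73 (limma, adjusted p = 0.0718) between miR-155-/-(LPS) and WT(LPS), and by −0.51 (adjusted p = 0.0977) with IL-10 in miR-155-/- BMDM, neither past the test. For the same pair of comparisons *Irf8* gave −0.40 and 0.41 (limma, adjusted p = 0.197 and 0.101) and *Irf9* 0.28 and −0.18 (adjusted p = 0.391 and 0.472). *Socs1*, the feedback inhibitor of JAK kinases and a known miR-155 target, was at 3.28 to 4.28 and differed by 0.58 in miR-155-/-(LPS) (limma, adjusted p = 0.361).

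Responses typical of each interferon were set beside the members. Of 14 genes listed for IFN-γ, 5 were called higher in miR-155-/-(LPS), beside 0.951% of all probe sets. Among them were the T-cell chemokines *Cxcl10* (3.39, limma, adjusted p = 0.00607) and *Cxcl9* (3.25, adjusted p = 0.0119), the MHC class II gene *H2-Ab1* (1.60, adjusted p = 0.0417) and the peptide transporter *Tap1* (1.51, adjusted p = 0.0221). *H2-Aa*, a class II partner chain, at −0.80, and *Cd74*, the class II chaperone, at −1.18, had the opposite sign and did not pass the test (limma, adjusted p = 0.581 and 0.255). With IL-10 in miR-155-/- BMDM 5 were called lower, beside 1.42% of all probe sets. *Cxcl10* was lower by 3.53 (limma, adjusted p = 0.00251) and *Cxcl9* by 3.09 (adjusted p = 0.00547). Of 15 genes listed for type I interferon 13 were measured. Of these 13, 6 were called higher in miR-155-/-(LPS), beside the same 0.951%, led by the exonuclease *Isg20* (2.80, limma, adjusted p = 0.00614) and the dynamin-like GTPase *Mx1* (2.50, adjusted p = 0.0379). With IL-10 in miR-155-/- BMDM 9 of the 13 were called lower, beside the same 1.42%, led by *Ifit2* (−2.80, limma, adjusted p = 0.0341) and *Isg20* (−2.78, adjusted p = 0.00265). In WT BMDM *Ifit1*, a sensor of foreign RNA caps, was called lower with IL-10 (−1.78, limma, adjusted p = 0.0472), beside 0.0222% of all probe sets.

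The median log2 difference with IL-10 was −0.85 in WT and −1.48 in miR-155-/- BMDM for the members, −0.40 and −0.65 for the IFN-γ list, and −1.61 and −1.95 for the type I list. Between genotypes with LPS + IL-10, the medians were 0.67, 0.27 and 1.62 for the same 3 sets. With LPS alone they were 1.31, 0.64 and 1.69. The interaction medians were −0.64, −0.54 and 0.13. The interaction median was thus nearer to 0 for the type I list than for the members, and the difference between the sets was not tested.

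Genes that act with these GTPases were read in the same way. With IL-10 in miR-155-/- BMDM, 2.68% of all probe sets were called in either direction. Of 15 genes for the conjugation of ATG8 proteins, which direct IRGs and GBPs to vacuoles, and for the ubiquitin that marks them, 1 was called, *Trim21*, an antibody receptor with ubiquitin ligase activity, lower with IL-10 in miR-155-/- BMDM (−0.63, limma, adjusted p = 0.0439). Of 8 inflammasome genes, 2 were called in that comparison. At an unadjusted p under 0.05, 6 of the 8 were lower there, beside 8.4% of all probe sets, and 1 was higher. *Nlrp3*, a sensor, was at 10.46 and 10.41 in miR-155-/-(LPS) and at 9.26 and 9.41 with IL-10 (−1.10, limma, adjusted p = 0.0131). *Pycard*, the adaptor ASC, went the other way, from 9.74 and 9.98 to 11.11 and 11.11 (1.25, limma, adjusted p = 0.00716). None of the 6 prenylation enzymes, which attach the lipid tail of some GBPs, was called in any of the comparisons.

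**Figure D5:**
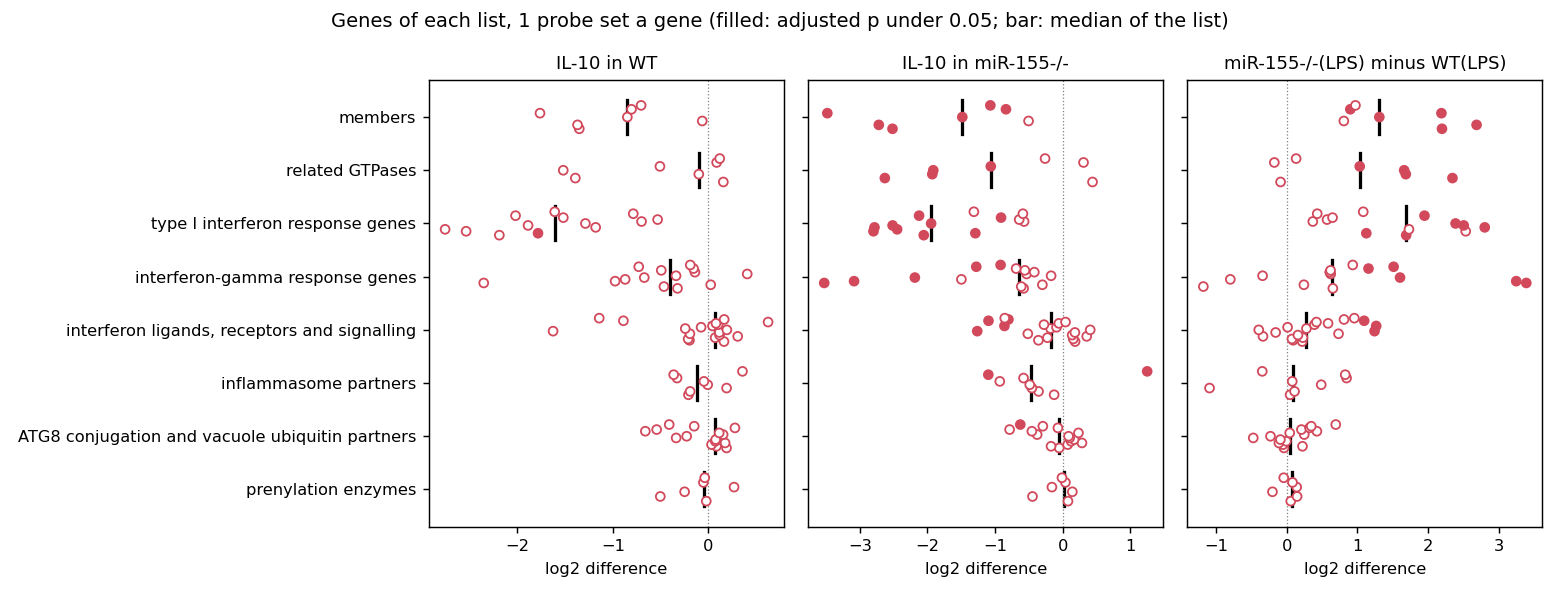
Log2 differences of the members and of 7 gene lists in 3 comparisons, 1 point a gene (its brightest probe set), filled at an adjusted p under 0.05, with a bar at each list's median. The medians of the members and of both interferon response lists lie to the left of 0 with IL-10 and to the right of 0 for miR-155-/-(LPS), and the medians of prenylation and ATG8 genes lie near 0.

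The mean profile of the 7 members, each centred on its own mean, was −0.34 and 0.15 in WT BMDM without IL-10 and −1.17 and −0.99 with it. In miR-155-/- BMDM it was 1.65 and 1.33 without IL-10, and −0.28 and −0.35 with it. The genes nearest to it over the 8 arrays were *Smpdl3b*, *Nt5c3*, *Phf11d*, *Ube2l6*, *Herc6*, *Slfn8*, *Malt1* and *Lmo4*, with root mean square distances of 0.15 to 0.21 (log2), where the median of 8478 candidates was 0.95. *Igtp* was the nearest of the members themselves, at 0.18, and *Iigp1* and *Gbp7* were the farthest, at 0.68 and 0.65. *Iigp1* moved more than the profile and *Gbp7* less. The likeness is a description over 8 arrays that was not tested.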

How the data were processed

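Total RNA of 8 BMDM samples was amplified, labelled and hybridised by the authors to Affymetrix mouse arrays. The deposited values are log2 intensities per probe set from RMA (affy package, run by the authors with background correction and quantile normalization), versions not given in the sources used here. RMA compresses differences at low signal. Of 45101 probe sets, 64 controls and 23 sex-linked ones were left out and 45014 were tested. Gene symbols came from the array annotation (34958 probe sets with 1 symbol, 932 with several, 9211 with none), and 0 array columns belonged to no sample.

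Group means were fitted to all 8 arrays with limma 3.58.1 in R 4.3.3 (lmFit, eBayes), with the donor, read from genotype and replicate number, as a random block (correlation 0.2398). Deviations from the group means correlated at r = 0.754 within WT donors and 0.230 within miR-155-/- donors. P-values of the 5 comparisons were two-sided and adjusted by Benjamini-Hochberg over all 45014 probe sets. The p-values rest only on the spread between these 8 arrays within groups, pooled over the 4 groups and moderated by limma across probe sets. The number of 2 arrays a group limits the precision. The code was tested on simulated data. Alternatives covered blocking, arrays used, filters, moderation, scaling and each array left out. Figures were made in Python 3.11.15 (matplotlib 3.10.9).

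All members were named in every comparison, with a fixed set of upstream genes. From each of 7 lists, up to 4 called genes per comparison were named by size, and the 8 genes nearest to the members' mean profile among those with a mean of at least 6. *Irgc1*, *Irgq*, *Gbp2b*, *H2-Aa*, *Cd74*, the single cell markers and the genes of shared probe sets were named after their values were seen. Members and lists were chosen with earlier results of these data known.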

Additional observations from a re-analysis of the deposited data

How the results depend on the processing

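Of the values of single members, 645 kept direction and side of the threshold, 66 lost a call, 32 gained one and 6 changed sign. *Gbp7* with IL-10 in WT ran from −0.27 to 0.14 with 1 array left out and was 0.0377 without WT donor 1, and the interaction of *Irgm1* ran from −0.12 to 0.0562 with 1 array left out. Of the 7 members, the 0 called with IL-10 in WT became 5 when dim probe sets (mean under 6) were left out, 5 with an intensity trend and robust moderation, and 3 with the selection of the methods. The 5 called in miR-155-/-(LPS) against WT(LPS) became 3 with the replicate number as a block, 0 with only the arrays compared, 2 without WT donor 1, and 0 to 2 with 1 array left out. The 6 called with IL-10 in miR-155-/- became 1 to 6 with 1 array left out. With IL-10, the 0 called between genotypes became 1, *Irgm1*, without dim probe sets, beside 1.39% of the probe sets tested called in either direction. The count was 1, again *Irgm1*, with trend and robust moderation (0.655%) and 2 with the selection of the methods (1.22%). For the interaction, the 0 called became 3 with that selection (1.76%). The 5 for miR-155-/-(LPS) against WT(LPS) also became 7 without dim probe sets (9.87%), with trend and robust moderation (3.49%) or with probe sets averaged by gene (1.75%). Array weights gave 6 (1.95%) and no block 4 (1.27%), and the 3 with the replicate number stood beside 1.09%. With IL-10 in miR-155-/-, the 6 also became 7 in the same settings (20.6%, 5.38% and 2.63%). They became 4 with no block (1.09%) or the replicate number as a block (1.16%). The cause was not tested, and some of these fits also had fewer arrays. Over all probe sets, calls ranged across the alternatives from 0 to 327 (14 as reported) with IL-10 in WT, 53 to 1570 (659) for miR-155-/-(LPS) against WT(LPS), 112 to 3183 (1206) with IL-10 in miR-155-/-, 2 to 295 (32) between genotypes with IL-10, and 1 to 105 (15) for the interaction. Where few arrays gave no donor correlation, that of all 8 was used. The donor as a fixed block allowed no comparison between genotypes, and the interaction was not run on only the arrays compared, since it uses all. Signal near background limits *Ifng*, *Ifnb1*, *Gbp8*, *Gbp2b* and, on most arrays, *Mir155hg*. *Socs1* lay near the median of all probe sets.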
